A study of Homo sapiens with 18 samples.

Results

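The SLC25 family comprises the mitochondrial carriers, membrane proteins that exchange nucleotides, phosphate, amino acids, carboxylates, cofactors and metal ions across the inner mitochondrial membrane. Its members were taken as all genes whose current symbol is SLC25A followed by digits and that had a probe set listed for a single gene on the array. Where a gene had several, the probe set of highest average signal over the 18 arrays stood for it, a choice that used no group. There were 45 such genes of 19775 with a single-gene probe set. Of these, 35 carriers were above the level for testing, a log2 value of 4 on at least 3 of 18 arrays, as were 10832 genes in the whole series. A further 5 SLC25A symbols belonged to antisense RNAs or pseudogenes and were left out.

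Expression was measured in HK-2 cells, an established line of human renal proximal tubular epithelial cells that has been immortalized, so all groups share 1 cell line. Cells were kept in control medium, in medium with DMSO or in medium with ethanol, each for 24 h or 48 h, and the 6 groups had 3 biological replicates each, as the sample labels name them. DMSO and ethanol are the vehicles for test compounds, and the comparisons ask what the vehicles alone do. Their doses are unknown here. All cells were grown with EGF, hydrocortisone, insulin, transferrin and selenite. RNA was hybridized to Affymetrix HG-U133 Plus 2.0 arrays.

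Carriers are encoded in the nucleus, are made in the cytosol and reach the inner membrane through a dedicated import route. The family supplies oxidative phosphorylation with ADP and phosphate, carries the malate-aspartate shuttle, and links mitochondria to the urea cycle, heme synthesis and fatty acid oxidation. Proximal tubule cells are rich in mitochondria and depend on them for solute reabsorption.

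Between 39.7% and 40.3% of probe sets on an array exceeded 4 on the log2 scale. The values had been normalized with GCRMA, which makes array distributions alike, so this share does not compare the signal before normalization. Arrays give no read depth, and their number limits the precision. Both ethanol replicate 3 arrays stood apart on the second principal component, with scores of -52.3 at 24 h and -61.6 at 48 h, while the other 16 arrays lay between -21.2 and 20.5. The spread between replicates was wider with ethanol: the median SD of the carriers was 0.298 in ethanol at 48 h and 0.144 in medium at 48 h. Of 8 proximal tubule markers with a probe set, CLDN2 and PAX8 were above the level for testing, and ANPEP, AQP1, CUBN, GGT1, LRP2 and SLC34A1 were not. All 5 epithelial markers were above it, none of 3 endothelial, 2 leukocyte or 3 distal nephron markers were, and 3 of 5 fibroblast markers and 1 of 3 podocyte markers (PTPRO) were.

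After 48 h, 8 of the 35 tested carriers differed between ethanol and medium (limma, adjusted p under 0.05). SLC25A25, SLC25A38 and SLC25A46 were higher with ethanol. SLC25A4, SLC25A11, SLC25A13, SLC25A15 and SLC25A23 were lower. That is 22.9% of the carriers, beside 15.3% of all genes tested, of which 7.8% were higher and 7.47% lower. The median difference over the carriers was -0.08 on the log2 scale and -0.04 over all genes, and the median size of a difference was 0.34 for carriers and 0.26 for all genes. Groups of arrays did not overlap for 14 of 35 carriers (40%), 4 higher and 10 lower, beside 29.6% of all genes. The 10 include SLC25A45, with a mean at 48 h of 3.68 with ethanol and 4.03 in medium. It reached the level for testing only on medium and DMSO arrays, so its place among the lower ones is not a result. In a fit of the 6 arrays compared alone, no carrier passed. With array weights SLC25A11, SLC25A23, SLC25A25 and SLC25A38 no longer passed (adjusted p from 0.0544 to 0.133), and with no filter on low values SLC25A11 and SLC25A25 did not (adjusted p = 0.0685 and 0.0762). The count fell to 4 without medium 48 h replicate 1 and to 5 without ethanol 48 h replicate 2. Without both ethanol replicate 3 arrays, 7 carriers passed, 6 of them among the 8. Here and below, a refit without a share of all genes beside it cannot tell a change in carrier calls from one over all genes.

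**Figure D1:**
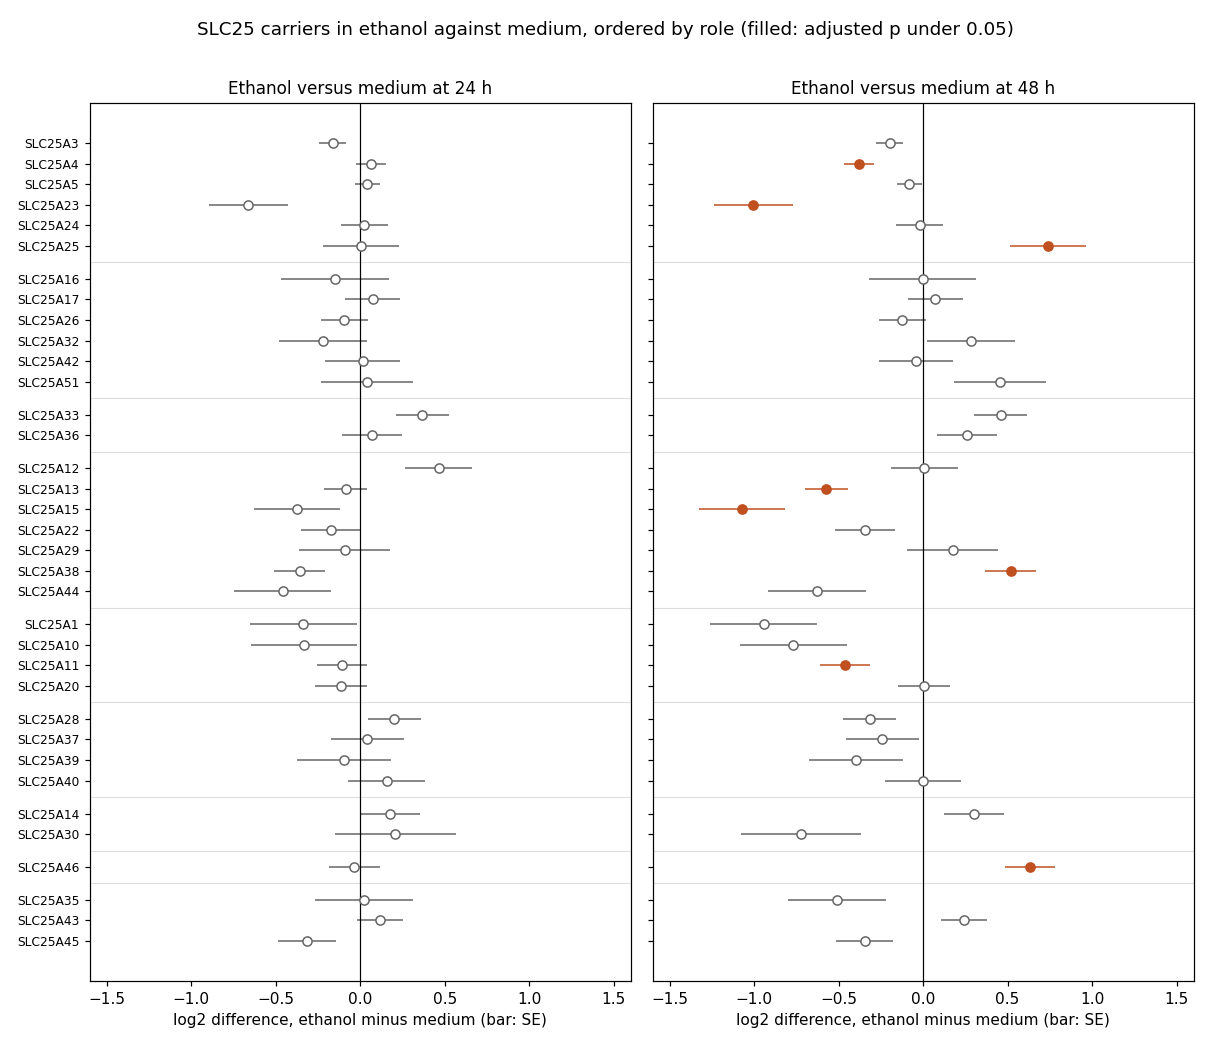
Log2 difference of each of the 35 tested carriers, ethanol minus medium, at 24 h (left) and 48 h (right), with bars for the standard error from the limma fit of 18 arrays and carriers grouped by role. Filled points passed at an adjusted p under 0.05: none at 24 h, and at 48 h 3 carriers to the right and 5 to the left of 0.

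All samples are labelled as the HK-2 line, so the marker lists give levels of genes in 1 cell line and not shares of cell types. Fewer cells that express a marker and less of its RNA per cell cannot be told apart in these bulk samples. Some cell type markers differed at 48 h as well. With ethanol against medium, CLDN2 was lower by a log2 difference of -2.64 ± 0.66 (adjusted p = 0.0155, limma), LUM by -1.07 ± 0.26 (adjusted p = 0.0135, limma) and PTPRO by -1.08 ± 0.19 (adjusted p = 0.0022, limma). They were 1 of 2 tested proximal tubule markers, 1 of 3 tested fibroblast markers and the 1 tested podocyte marker, beside 15.3% of all genes, 7.47% lower. Lists this short cannot be told apart from that share. PAX8, DCN and COL1A1 did not pass. None of the 5 epithelial markers passed. Linear values were also summed over each list, with markers under the level for testing included, and are given as the log2 of the sum. That of the proximal tubule markers was 10.8 to 11.3 in ethanol and 11.7 to 12.0 in medium at 48 h. For the fibroblast markers it was 10.1 to 12.4 and 12.1 to 12.2, and for the podocyte markers 11.7 to 12.4 and 13.02 to 13.28. The endothelial list summed to 4.26 to 4.36 with ethanol and 4.27 to 4.33 in medium, with all its markers under the level for testing. The part of these markers in the carrier results was not tested.

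Differences below are log2 differences ± standard error from the limma fit with 3 arrays a group, and adjusted p-values are Benjamini-Hochberg values over all 10832 genes. Unless another fit is named, a carrier that passed did so in the fit of 18 arrays without a replicate block. The comparisons of ethanol with medium and with DMSO share the ethanol arrays, so their values stand side by side and do not support each other.

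Among the carriers of adenine nucleotides and phosphate, 6 of 8 were tested. SLC25A4 encodes an ADP/ATP carrier, which brings ADP to the ATP synthase and exports ATP. At 48 h its values were 9.30, 9.28 and 9.58 with ethanol, 9.87, 9.77 and 9.77 with DMSO and 9.82, 9.71 and 9.76 in medium. The ethanol arrays lay below all DMSO and medium arrays of that time. The difference was -0.42 ± 0.09 from DMSO (adjusted p = 0.00556, limma) and -0.38 ± 0.09 from medium (adjusted p = 0.0114, limma). From 24 h to 48 h in ethanol SLC25A4 fell by 0.27 ± 0.09 (adjusted p = 0.0414, limma). That last call was lost without any of the 3 ethanol 24 h arrays (adjusted p from 0.0789 to 0.0853), without ethanol 48 h replicate 1 (adjusted p = 0.106) and without ethanol 48 h replicate 2 (adjusted p = 0.137). SLC25A5, the other ADP/ATP carrier tested, lay between 14.08 and 14.25 on all 18 arrays, and SLC25A3, the phosphate carrier, between 13.70 and 14.04. Neither passed in any comparison of the 18-array fit without a block. Still, the ethanol arrays of SLC25A3 were below all medium arrays at both times, and those of SLC25A5 at 48 h.

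SLC25A23, SLC25A24 and SLC25A25 encode calcium-regulated carriers that exchange ATP-magnesium for phosphate. SLC25A23 was at 7.20, 7.02 and 6.73 with ethanol at 48 h, at 8.45, 7.84 and 7.72 with DMSO and at 8.26, 7.93 and 7.77 in medium. Every ethanol array was below every array of the other groups at that time. The difference was -1.02 ± 0.23 from DMSO (adjusted p = 0.00825, limma) and -1.004 ± 0.233 from medium (adjusted p = 0.0105, limma), a 2.01-fold lower level than in medium. The second probe set of the gene had a smaller difference from medium, -0.28 ± 0.16.

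At 24 h the ethanol values of SLC25A23 were 7.16, 7.33 and 6.86 against 8.21, 7.55 and 7.59 in medium, again without overlap. The difference of -0.66 ± 0.23 did not pass (adjusted p = 0.423, limma). With the replicate number as a block, which pairs these arrays, it passed (adjusted p = 0.0393, limma), and so did the difference of -0.79 from DMSO at 24 h (adjusted p = 0.011, limma). These were the only carriers to pass at 24 h in that fit, beside 1.02% and 3.26% of all genes.

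SLC25A25 was at 5.84, 6.21 and 6.91 with ethanol at 48 h and at 5.52, 5.29 and 5.93 in medium. The groups overlapped, since ethanol replicate 1 was below medium replicate 3. The difference was 0.74 ± 0.23 (adjusted p = 0.0392, limma). From DMSO it was 0.39 ± 0.23 (adjusted p = 0.255, limma). Without ethanol 48 h replicate 3, the highest array, the difference from medium was 0.45 (adjusted p = 0.145). The call was also lost without medium 48 h replicate 1 (adjusted p = 0.107), without medium 48 h replicate 2 (adjusted p = 0.139) and without ethanol 48 h replicate 2 (adjusted p = 0.0681). SLC25A24 passed in no fit described here and differed from medium by -0.02 at 48 h. SLC25A31, a further ADP/ATP carrier, and SLC25A41 were under the level for testing.

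Amino acid carriers held 3 of the 8 calls at 48 h, among 7 tested of 9. SLC25A15 encodes the ornithine carrier, which exchanges ornithine and citrulline for the urea cycle. Its values in ethanol were 6.43, 6.09 and 6.80 at 24 h and 5.09, 4.47 and 5.49 at 48 h. All 3 arrays at 48 h lay below all 15 other arrays. SLC25A15 fell by 1.42 ± 0.26 between these times (adjusted p = 0.00132, limma). At 48 h medium arrays were at 5.88, 6.26 and 6.12 and DMSO arrays at 6.04, 6.20 and 6.07. The difference at 48 h was -1.07 ± 0.26 from medium (adjusted p = 0.0118, limma), a 2.10-fold lower level, and -1.09 ± 0.26 from DMSO (adjusted p = 0.00931, limma). Without ethanol 48 h replicate 2, the lowest array, the difference from medium was -0.80 (adjusted p = 0.0544). A second probe set, near background, differed from medium by -0.29 ± 0.29. With the mean of both probe sets the difference from medium was -0.68 (adjusted p = 0.0797), and the call was lost.

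SLC25A13 encodes citrin, an aspartate-glutamate carrier of the malate-aspartate shuttle. It was at 10.77, 10.86 and 10.93 in ethanol at 24 h and at 10.54, 10.02 and 10.02 at 48 h. The arrays at 48 h were lower without overlap, replicates 2 and 3 most. SLC25A13 fell by 0.66 ± 0.13 (adjusted p = 0.00215, limma), and its 2 other probe sets differed by -0.56 ± 0.17 and -0.48 ± 0.14. Against medium at 48 h the difference was -0.57 ± 0.13 (adjusted p = 0.00822, limma), and against DMSO -0.52 ± 0.13 (adjusted p = 0.0114, limma). The probe sets disagreed against medium, since the others gave -0.14 ± 0.17 and 0.29 ± 0.14. With the mean of the 3 probe sets neither call at 48 h was kept: the difference was -0.14 from medium (adjusted p = 0.429) and -0.24 from DMSO (adjusted p = 0.16). SLC25A12, the other aspartate-glutamate carrier, differed from medium by 0.46 ± 0.20 at 24 h (adjusted p = 0.522, limma) and by 0.00 at 48 h. Its ethanol values at 24 h were 8.30, 8.16 and 8.96, highest in replicate 3.

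SLC25A38 encodes the carrier that brings glycine into mitochondria for the first step of heme synthesis. In ethanol it was at 7.75, 7.72 and 7.71 at 24 h and at 8.71, 8.65 and 8.78 at 48 h. The 3 arrays at 48 h were above all 15 others. SLC25A38 rose by 0.99 ± 0.15 between the times (adjusted p = 0.000486, limma), a 1.98-fold change that passed under all 16 alternatives run. In medium it was at 8.20, 7.76 and 8.30 at 24 h and at 8.26, 8.10 and 8.22 at 48 h. At 24 h the ethanol arrays were thus below those of medium, by -0.36 ± 0.15 (adjusted p = 0.507, limma). At 48 h they were above, by 0.52 ± 0.15 (adjusted p = 0.0322, limma).

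The time change of SLC25A38 was larger in ethanol than in medium by 0.88 ± 0.21, which missed the threshold (adjusted p = 0.0563, limma). The difference from DMSO at 48 h was 0.57 ± 0.15 (adjusted p = 0.0189, limma). The call against medium was lost without any 1 of the 3 medium 48 h arrays (adjusted p from 0.0617 to 0.0964), without ethanol 48 h replicate 2 (adjusted p = 0.0602) and without ethanol 48 h replicate 3 (adjusted p = 0.0838). That against DMSO was lost without DMSO 48 h replicate 3 (adjusted p = 0.0922) and without ethanol 48 h replicate 3 (adjusted p = 0.0528). The difference kept its direction, between 0.47 and 0.55 against medium over all alternatives.

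SLC25A22, a glutamate carrier, was at 6.04, 6.22 and 5.99 with ethanol at 48 h, below all 15 other arrays, but its difference from medium of -0.34 did not pass. SLC25A44, a carrier of branched-chain amino acids, differed from medium by -0.63 ± 0.29 (adjusted p = 0.157, limma). Its ethanol values of 10.59, 10.20 and 9.27 were low in replicate 3. SLC25A29, a carrier of basic amino acids, passed in no comparison. SLC25A2, a second ornithine carrier, and SLC25A18, a second glutamate carrier, were under the level for testing, with no value above 2.13.

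The 250 bases before the annotated start of SLC25A15 and SLC25A38 are shown here because these carriers had the largest fall and the largest rise of the family from 24 h to 48 h in ethanol. Both are from RefSeq on GRCh38.p14, plus strand, at chr13:40789361-40789610 and chr3:39383120-39383369. Capitals mark CG dinucleotides, of which the first holds 35 and the second 12.
SLC25A15: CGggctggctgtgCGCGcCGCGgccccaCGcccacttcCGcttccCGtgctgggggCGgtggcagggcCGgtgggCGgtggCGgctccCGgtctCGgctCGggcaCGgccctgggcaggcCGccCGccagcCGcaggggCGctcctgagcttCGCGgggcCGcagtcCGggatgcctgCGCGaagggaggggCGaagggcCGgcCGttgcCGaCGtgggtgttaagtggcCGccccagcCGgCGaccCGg
SLC25A38: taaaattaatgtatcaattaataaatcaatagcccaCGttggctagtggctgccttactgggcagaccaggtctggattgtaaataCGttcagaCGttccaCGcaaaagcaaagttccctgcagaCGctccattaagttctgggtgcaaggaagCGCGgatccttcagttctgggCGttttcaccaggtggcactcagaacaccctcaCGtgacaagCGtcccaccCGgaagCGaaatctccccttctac

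Of 4 tested carriers of carboxylates and carnitine, 1 passed against medium at 48 h. SLC25A20, the carnitine-acylcarnitine carrier, differed by 0.00. SLC25A11 encodes the oxoglutarate carrier, which exchanges oxoglutarate for malate in the malate-aspartate shuttle. It was at 8.92, 9.02 and 9.18 with ethanol at 48 h, at 9.61, 9.29 and 9.64 with DMSO and at 9.66, 9.27 and 9.57 in medium. The ethanol arrays were below all 15 others. The difference was -0.48 ± 0.15 from DMSO (adjusted p = 0.0364, limma) and -0.46 ± 0.15 from medium (adjusted p = 0.0467, limma), and a second probe set gave -0.43 ± 0.17 from medium.

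Both calls for SLC25A11 lay close to the threshold. Against medium it was lost without medium 48 h replicate 1 (adjusted p = 0.167), medium 48 h replicate 3 (adjusted p = 0.135), ethanol 48 h replicate 1 (adjusted p = 0.0982) or ethanol 48 h replicate 2 (adjusted p = 0.104). Against DMSO it was lost without DMSO 48 h replicate 1 (adjusted p = 0.121), DMSO 48 h replicate 3 (adjusted p = 0.127), ethanol 48 h replicate 1 (adjusted p = 0.0829) or ethanol 48 h replicate 2 (adjusted p = 0.0824).

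SLC25A1 encodes the citrate carrier, which exports citrate for fatty acid synthesis. Its values at 48 h were 9.39, 9.05 and 9.10 with ethanol, 10.46, 9.68 and 10.31 with DMSO and 10.64, 9.43 and 10.29 in medium. The ethanol arrays were below all 15 others. The difference was -0.97 ± 0.32 from DMSO (adjusted p = 0.0465, limma). From medium it was -0.94 ± 0.32, just outside the threshold (adjusted p = 0.057, limma). The call against DMSO was lost without DMSO 48 h replicate 1 (adjusted p = 0.16), DMSO 48 h replicate 3 (adjusted p = 0.133), ethanol 48 h replicate 2 (adjusted p = 0.119) or ethanol 48 h replicate 3 (adjusted p = 0.102). SLC25A10, the dicarboxylate carrier, had the largest difference from medium at 48 h of the carriers that passed in no comparison of the 18-array fit without a block, -0.77 ± 0.31 (adjusted p = 0.114, limma), with values of 6.65, 6.34 and 7.05 against 7.86, 7.05 and 7.44. SLC25A21, an oxodicarboxylate carrier, was under the level for testing.

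SLC25A46 encodes a family member of the outer mitochondrial membrane that is known for its part in mitochondrial shape. It was at 10.23, 10.53 and 10.82 with ethanol at 48 h, at 9.76, 9.93 and 9.99 in medium and at 9.89, 10.11 and 10.11 with DMSO. All 3 ethanol arrays were above all medium and DMSO arrays of that time. The difference was 0.63 ± 0.15 from medium (adjusted p = 0.0116, limma) and 0.49 ± 0.15 from DMSO (adjusted p = 0.0358, limma). A second probe set was 0.35 ± 0.17 higher than in medium. The call against medium was lost without medium 48 h replicate 1 (adjusted p = 0.0504). That against DMSO was lost without any of the 3 DMSO 48 h arrays (adjusted p from 0.057 to 0.133), without ethanol 48 h replicate 2 (adjusted p = 0.0778) and without ethanol 48 h replicate 3 (adjusted p = 0.135).

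No coenzyme or vitamin carrier of 6 tested passed between ethanol and medium at 48 h. These carry coenzyme A (SLC25A42), S-adenosylmethionine (SLC25A26), folate (SLC25A32) and NAD (SLC25A51), and SLC25A17 is a cofactor carrier of peroxisomes. Their differences ran from -0.13 for SLC25A26 to 0.45 for SLC25A51. SLC25A16, linked to coenzyme A, passed over time in ethanol. It was at 8.96, 9.27 and 7.75 at 24 h and at 10.07, 9.68 and 9.04 at 48 h. The groups overlapped, and replicate 3 was lowest at both times. The rise was 0.94 ± 0.32 (adjusted p = 0.0454, limma), and the other probe sets gave 0.25, 0.69 and 0.13. The call was lost without ethanol 24 h replicate 3 (0.48, adjusted p = 0.185), ethanol 48 h replicate 1 (adjusted p = 0.156) or ethanol 48 h replicate 2 (adjusted p = 0.115). It was also lost with quantile normalization (adjusted p = 0.0517), with no filter on low values (adjusted p = 0.0964) and with array weights (adjusted p = 0.0767).

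Neither pyrimidine nucleotide carrier passed against medium. SLC25A33 was 0.46 ± 0.16 higher with ethanol at 48 h, just outside the threshold (adjusted p = 0.0602, limma). SLC25A36 was at 9.90, 10.00 and 9.58 in ethanol at 24 h and at 10.20, 10.42 and 10.67 at 48 h. The groups did not overlap, and replicate 3 went from lowest to highest. The rise was 0.60 ± 0.18 (adjusted p = 0.0255, limma), and 3 other probe sets gave 0.54, 0.39 and 0.40. Leaving out replicate 3 of ethanol at both times gave 0.36 (adjusted p = 0.23). The call was lost as well without ethanol 24 h replicate 3 (adjusted p = 0.101), ethanol 48 h replicate 2 (adjusted p = 0.0617) or ethanol 48 h replicate 3 (adjusted p = 0.0846), with the mean of the probe sets (adjusted p = 0.11) and with array weights (adjusted p = 0.0946).

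The iron carriers SLC25A28 and SLC25A37, the mitoferrins, and the glutathione carriers SLC25A39 and SLC25A40 did not pass against medium at either time. SLC25A28 was at 8.23, 8.0 and 8.41 in ethanol at 24 h and at 7.38, 7.56 and 7.97 at 48 h. The groups did not overlap. The fall was 0.57 ± 0.16 (adjusted p = 0.0164, limma), and a second probe set differed by -0.45 ± 0.23. It did not pass without ethanol 24 h replicate 3 (adjusted p = 0.0662), ethanol 48 h replicate 1 (adjusted p = 0.0611) or ethanol 48 h replicate 2 (adjusted p = 0.0569), nor with the mean of the probe sets (adjusted p = 0.0514).

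SLC25A14 and SLC25A30, relatives of the uncoupling proteins, passed in no comparison of the 18-array fit. SLC25A30 differed from medium by -0.72 ± 0.36 at 48 h (adjusted p = 0.189, limma), with ethanol values of 10.52, 9.27 and 8.82 spread over a wider range than the medium values of 10.44, 10.31 and 10.03. SLC25A27 was under the level for testing. Of the less characterised members, SLC25A35, SLC25A43 and SLC25A45 were tested and did not pass in the 18-array fit without a block. SLC25A45 was near the level, above it on 4 of 18 arrays. SLC25A34, SLC25A47, SLC25A48 and SLC25A53 were under it, with no value above 3.92.

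**Figure D2:**
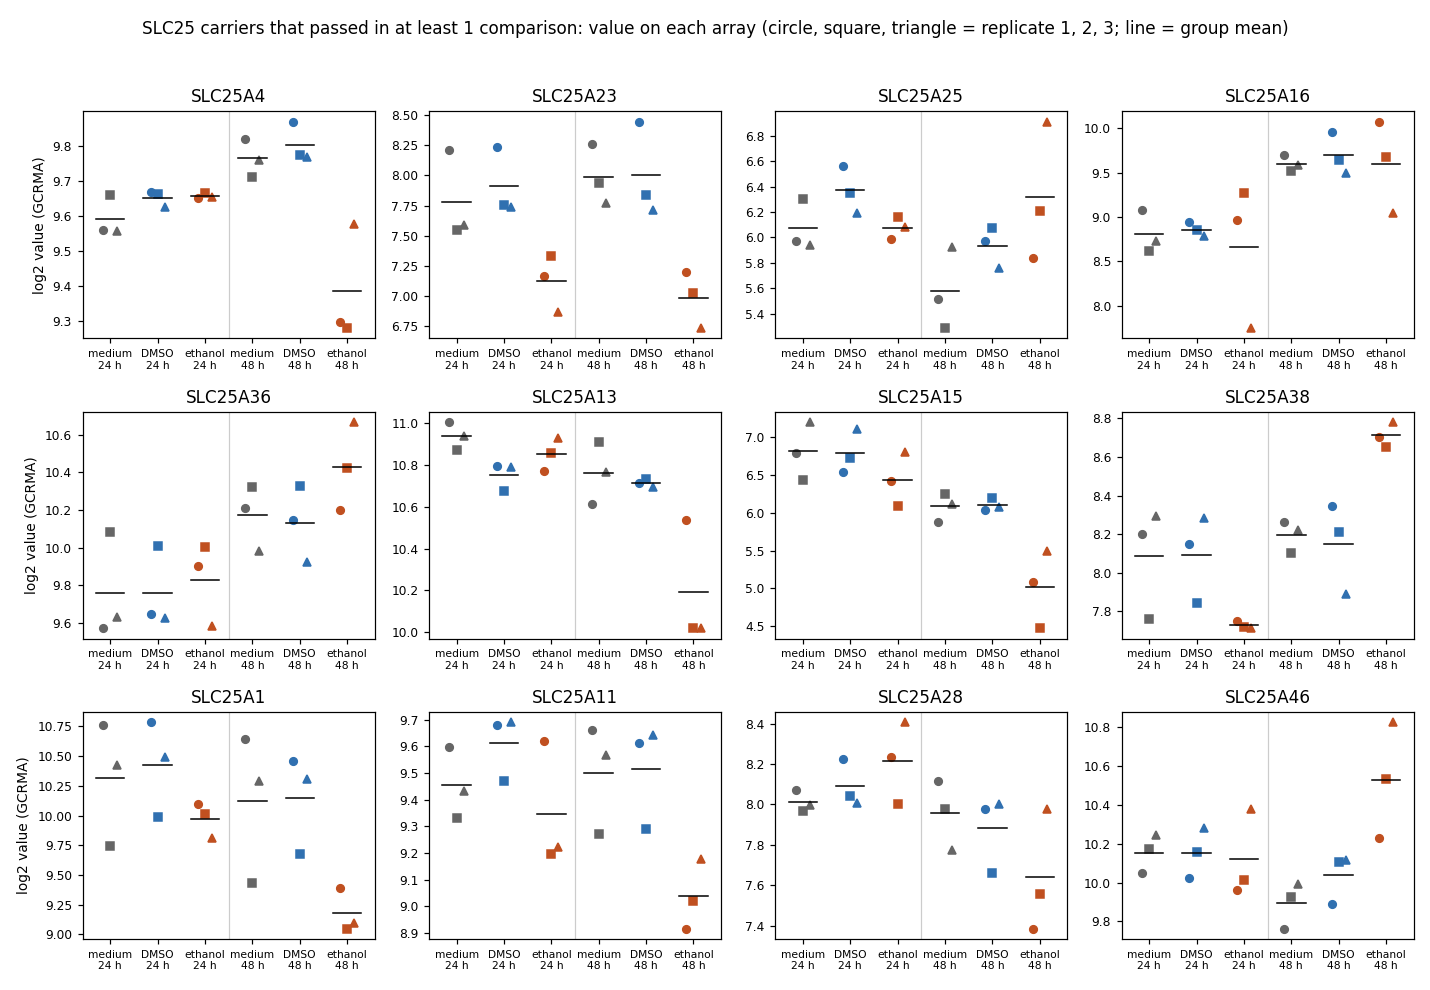
Log2 value on each of the 18 arrays for the 12 carriers that passed in at least 1 comparison; each panel has its own vertical range, symbols mark the replicate number and the line is the group mean. The ethanol arrays at 48 h lie below all others for SLC25A1, SLC25A11, SLC25A13 and SLC25A15, and above all others for SLC25A38.

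Ethanol at 48 h lay outside all 15 other arrays for 6 of 35 carriers (17.1%), beside 13.8% of all genes. SLC25A1, SLC25A11, SLC25A13, SLC25A15 and SLC25A22 were below and SLC25A38 above. Both ethanol replicate 3 arrays lay outside the 12 DMSO and medium arrays for 10 carriers (28.6%), beside 22.2% of all genes. They were higher for SLC25A14, SLC25A32, SLC25A33, SLC25A43 and SLC25A46, and lower for SLC25A3, SLC25A11, SLC25A23, SLC25A30 and SLC25A44.

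**Figure D3:**
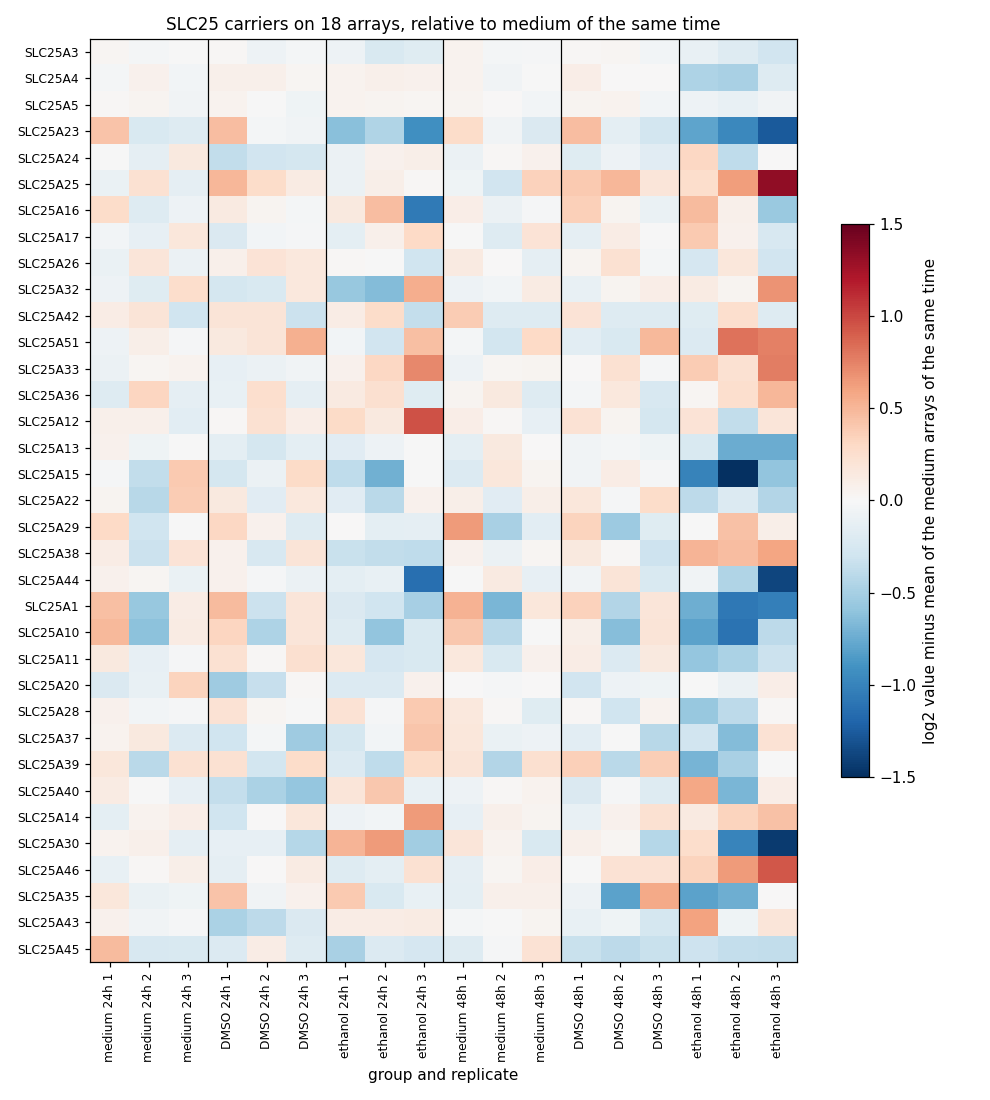
Log2 value of each tested carrier on each array minus the mean of the medium arrays of the same time, with carriers in rows ordered by role and arrays in columns by group and replicate. The strongest colours lie in the ethanol columns at 48 h, and some rows, such as SLC25A16, SLC25A30 and SLC25A44, are strongest in ethanol replicate 3.

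At 24 h no carrier passed between ethanol and medium (0.0739% of all genes did), and 4 (11.4%, beside 8.91% of all genes) had an unadjusted p under 0.05: SLC25A12 at 0.46, SLC25A33 at 0.37, SLC25A23 at -0.66 and SLC25A38 at -0.36. Relative to the medium mean, ethanol replicates 1 to 3 were at 0.29, 0.15 and 0.95 for SLC25A12 and at 0.06, 0.31 and 0.72 for SLC25A33. Both were thus highest in replicate 3, which stood apart. For SLC25A23 they were at -0.62, -0.45 and -0.92, and for SLC25A38 at -0.34, -0.37 and -0.38. Groups of arrays did not overlap for 7 of 35 carriers (20%), beside 14.6% of all genes. Between ethanol and DMSO at 24 h none passed (0.619% of all genes), and 6 had an unadjusted p under 0.05 (17.1%, beside 12.9% of all genes). Against DMSO at 48 h, 8 carriers passed, 2 higher and 6 lower, beside 17.9% of all genes, of which 8.55% were higher and 9.31% lower. They were SLC25A38 and SLC25A46 on the higher side and SLC25A1, SLC25A4, SLC25A11, SLC25A13, SLC25A15 and SLC25A23 on the lower. With array weights SLC25A1, SLC25A11 and SLC25A38 did not pass, and with no filter on low values SLC25A1, SLC25A11 and SLC25A46 did not. That count was 0 with the groups compared alone, 4 without DMSO 48 h replicate 3, and 5 without DMSO 48 h replicate 1 or without ethanol 48 h replicate 3.

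DMSO and medium differed in no carrier at either time (limma), as in 0% of all genes. At 24 h 2 carriers had an unadjusted p under 0.05, SLC25A24 at -0.31 ± 0.14 and SLC25A43 at -0.37 ± 0.13, and at 48 h 0 had. Over all genes 1.88% and 0.489% had one. Carrier differences ran from -0.47 to 0.30 at 24 h and from -0.36 to 0.35 at 48 h, with a median size of 0.09 and 0.07. With the 12 DMSO and medium arrays alone and the replicate number as a block, again 0 carriers passed at either time, beside 0.102% of all genes at 24 h.

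From 24 h to 48 h in ethanol, 7 carriers passed: SLC25A16, SLC25A36 and SLC25A38 rose, and SLC25A4, SLC25A13, SLC25A15 and SLC25A28 fell. That is 20% of the carriers, beside 23% of all genes, of which 11.7% were higher and 11.3% lower. With the replicate number as a block 13 carriers passed, 4 higher and 9 lower, beside 32.8% of all genes. The count was 1 with the ethanol arrays alone, SLC25A38, 3 without ethanol 48 h replicate 2 and 4 without ethanol 24 h replicate 3.

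**Figure D4:**
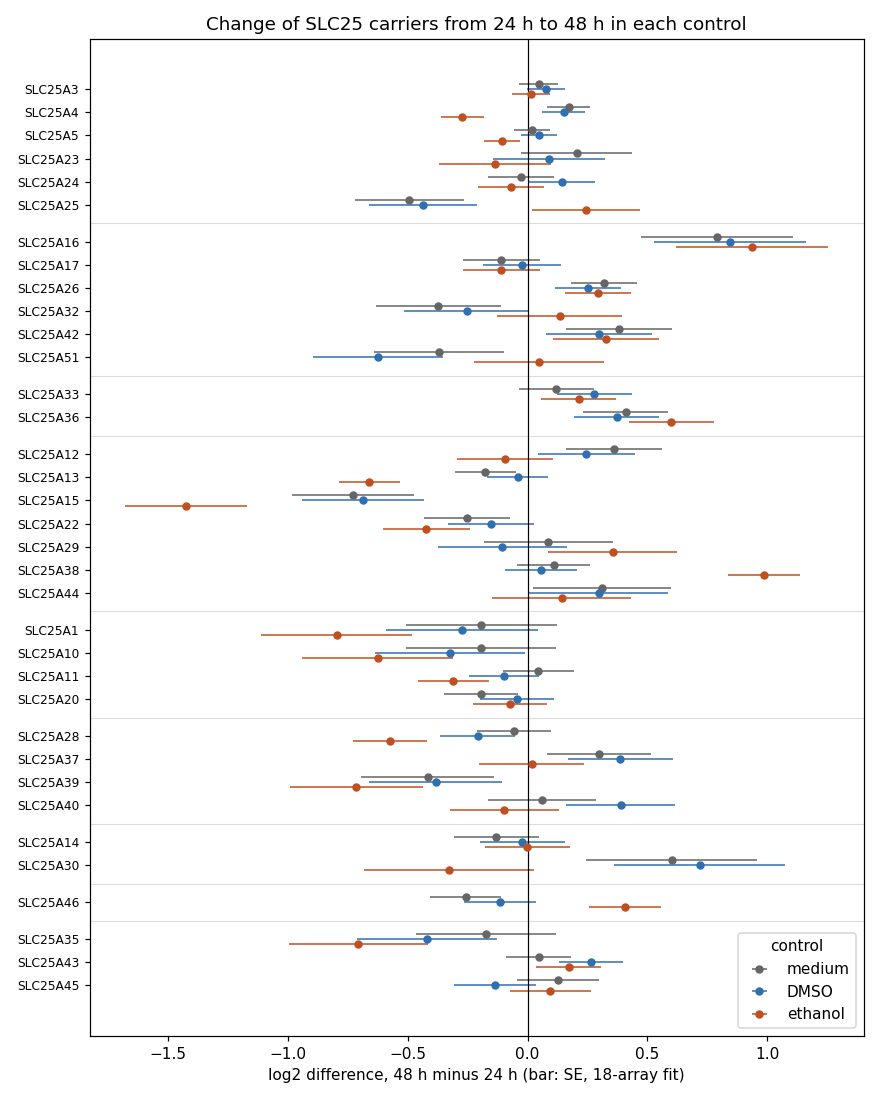
Log2 difference of each tested carrier, 48 h minus 24 h, in medium, DMSO and ethanol, with bars for the standard error from the 18-array fit. SLC25A16 lies right of 0 and SLC25A15 left of 0 in all 3, SLC25A38 lies far right in ethanol and near 0 in medium and DMSO, and SLC25A13 lies left of 0 most in ethanol.

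In medium and in DMSO no carrier passed over time in the 18-array fit, as in 0% of all genes, while 5 and 3 carriers (14.3% and 8.57%) had an unadjusted p under 0.05, beside 11.1% and 10.2% of all genes. With the replicate number as a block in that fit 0 carriers passed in either, beside 4.04% of all genes in medium and 2.37% in DMSO. The medium and DMSO arrays were paired by replicate number and varied less than the ethanol arrays. A fit of these 12 arrays with the replicate number as a block, added after the data were seen, gave 10 carriers in medium, 6 higher and 4 lower, beside 29.8% of all genes. In DMSO it gave 15 carriers, 9 higher and 6 lower, beside 28.5% of all genes. Without 1 array in turn the count in medium was 8 to 12 and that in DMSO 8 to 14. The count in DMSO was 9 without DMSO 24 h replicate 1, and 8 without DMSO 24 h replicate 2, DMSO 48 h replicate 1 or DMSO 48 h replicate 2.

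In that fit 8 carriers passed in both, 80% of those in medium and 53.3% of those in DMSO, all in the same direction. Over all genes 2311 passed in both, 71.6% and 74.96% of those lists, also all in the same direction. SLC25A16 was at 9.08, 8.62 and 8.73 in medium at 24 h and at 9.70, 9.52 and 9.58 at 48 h. Its rise was 0.79 ± 0.08 in medium (adjusted p = 0.000364, limma) and 0.84 ± 0.08 in DMSO (adjusted p = 0.00044, limma). SLC25A30 rose by 0.60 ± 0.07 and 0.72 ± 0.07. SLC25A36 rose by 0.41 ± 0.08 and 0.37 ± 0.08, and SLC25A26 and SLC25A44 rose too. The DMSO call of SLC25A26 was near the threshold (adjusted p = 0.0493, limma). It was lost without any of the 3 DMSO 48 h arrays, among others, and its medium call without medium 24 h replicate 1, among others. SLC25A44 was lost without replicate 2 of either time, in medium for the medium call and in DMSO for the DMSO call. SLC25A15 fell by 0.73 ± 0.16 and 0.69 ± 0.16, the glutathione carrier SLC25A39 fell by 0.42 ± 0.06 and 0.38 ± 0.06, and SLC25A32 fell as well. The DMSO call of SLC25A32 (adjusted p = 0.0406, limma) was lost without any of the 3 DMSO 24 h arrays, among others. That of SLC25A15 was lost without replicate 3 of DMSO at 24 h or at 48 h, while its medium call was kept without any 1 array. So the level of SLC25A15 was lower at 48 h in all 3 controls, and the further fall in ethanol than in medium was not itself a pass: no carrier passed in the test of the time change in ethanol minus that in medium, beside 1.59% of all genes, and 6 had an unadjusted p under 0.05 (17.1%, beside 13.8% of all genes).

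The wider transport system was described with 4 gene lists, ethanol against medium at 48 h, where 15.3% of all genes passed. Of the family members with other symbols 3 were tested, and UCP2, an uncoupling protein, was lower by -0.99 ± 0.20 (adjusted p = 0.00491, limma). Of 15 tested genes of the import route, TIMM22, the channel of the carrier translocase, was lower by -0.98 ± 0.26 (adjusted p = 0.0196, limma) and 14 did not pass. Of 12 other mitochondrial transport genes, MPC1, a pyruvate carrier subunit, was higher by 0.48 ± 0.13 and ABCB10 lower by -0.71 ± 0.19. Of 18 enzymes that work beside the carriers, 3 were higher and 4 lower.

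The enzymes of the malate-aspartate shuttle that passed differed in direction. MDH1, a further shuttle enzyme on the list, was not among those that passed. GOT1, the cytosolic aspartate aminotransferase, was higher by 0.81 ± 0.17 (adjusted p = 0.0055, limma), while its mitochondrial partner GOT2 was lower by -0.55 ± 0.10 (adjusted p = 0.0023, limma) and MDH2, the mitochondrial malate dehydrogenase, lower by -0.34 ± 0.09 (adjusted p = 0.022, limma). CS, which makes the citrate that SLC25A1 exports, was lower by -0.59 ± 0.12, and OAT, which makes or uses ornithine, by -0.39 ± 0.10. SHMT2, which makes glycine in mitochondria, was higher by 1.27 ± 0.25 (adjusted p = 0.00463, limma). FECH, the last enzyme of heme synthesis, was higher by 0.70 ± 0.18. None of the genes of these 4 lists passed at 24 h between ethanol and medium, beside 0.0739% of all genes, or between ethanol and DMSO, beside 0.619%. With shares this low, the lack of calls says little about these lists. Over time in ethanol, where 23% of all genes passed, the lists had 0 higher and 2 lower, 2 higher and 4 lower, 4 higher and 3 lower, and 1 higher and 4 lower genes, in the order of family members with other symbols, import, enzymes and other transport.

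Of the 45 carriers, 38 had a RefSeq window of 250 bases before an annotated start on GRCh38.p14. For some, such as SLC25A25 and SLC25A46, that start lies inside the gene. Both strands were searched for TGATGNAA, the core of the element bound by CEBP and ATF factors in stress responses, and for the palindrome bound by NRF1. SLC25A11 held the first, at position -71 on the minus strand, and was the sole carrier to do so (2.63%), beside 3.19% of 27305 promoters. The second was in 0 of the 38, beside 1.13% of all promoters. A match describes these letters only. The window of SLC25A11, chr17:4940047-4940296 on the minus strand, is shown with that match in capitals.
SLC25A11: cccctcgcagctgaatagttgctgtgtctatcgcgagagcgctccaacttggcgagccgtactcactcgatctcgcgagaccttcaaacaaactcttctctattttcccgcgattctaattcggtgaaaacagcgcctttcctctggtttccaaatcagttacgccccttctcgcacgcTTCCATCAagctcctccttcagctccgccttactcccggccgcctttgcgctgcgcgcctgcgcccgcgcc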

How the data were processed

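Gene expression of HK-2 cells was measured on 18 arrays in 6 groups of 3 biological replicates. The deposited values are log2 expression that the authors made with GCRMA, per the submitters' processing notes. GCRMA corrects background by probe base composition and makes array distributions alike. Its version is not stated, and the values themselves showed the log2 scale. The shorter time is 24 h in the labels, used here, and 12 h in the series text. Of 54675 probe sets, 41091 had 1 gene, 1801 several and 11721 none listed, 62 were controls, and 41037 symbols were taken from RefSeq.

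Groups were compared with limma 3.58.1 in R 4.3.3, with the means of 6 groups in 1 fit (12 residual and 2.65 prior degrees of freedom), 10 contrasts, two-sided tests and Benjamini-Hochberg adjustment within each contrast. On simulated data for ethanol against medium at 48 h with 10832 genes, 74 of 100 genes changed by 1 on the log2 scale and 98 of 100 changed by 2 were recovered. The same simulated data gave 16 false calls. Replicate numbers are shared by the groups, so it was checked if arrays of the same number deviate together from their groups. The correlations over genes lay between 0.526 and 0.731 among medium and DMSO groups and above 0.1 for ethanol at 24 h with the other groups and with ethanol at 48 h, but for ethanol at 48 h with medium or DMSO only in replicate 3 (0.279 to 0.411), not in replicates 1 and 2. The members, lists and tests were chosen with earlier results of these data known. Every member was accounted for, and those under an adjusted p of 0.05 in any contrast are given by array. Alternatives were another normalization (quantile, median centring), no filter or a stricter one, the mean of probe sets, a trended and robust prior, array weights, the groups compared alone, a replicate block and arrays left out. Protein sequences were not analysed here.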

Additional observations from a re-analysis of the deposited data

How the results depend on the processing

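The counts of carriers that passed, main value first, depended on the spread used. With the groups compared alone, ethanol against medium at 48 h went from 8 to 0, ethanol against DMSO at 48 h from 8 to 0 and time in ethanol from 7 to 1. With array weights they were 4 and 5 for the 48 h comparisons, 1 and 4 for ethanol against medium and against DMSO at 24 h, 1 for time in DMSO and 3 for the time change in ethanol minus that in medium, each of the last 4 from 0, beside 13.2%, 13.7%, 6.8%, 11.5%, 0.877% and 5.35% of all genes in that order. The replicate block gave 13 and 14 at 48 h, 1 and 1 at 24 h, 13 for time in ethanol and 2 for the difference in time change, beside 26% and 29% of all genes at 48 h, 32.8% over time and 4.69% for the difference; the numbers do not pair ethanol at 48 h with medium or DMSO, and in the other comparisons the block changed no further count. Without both ethanol replicate 3 arrays, time in DMSO and the difference in time change each had 1, and the latter had 1 as well with no filter on low values and with the mean of probe sets. The 12 DMSO and medium arrays with a block gave 10 over time in medium and 15 in DMSO, from 0. Counts here and below without a share of all genes cannot tell a change in carrier calls from one over all genes. The cause of these moves was not tested.

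Leaving out 1 array at a time gave 4 to 10 carriers for ethanol against medium at 48 h, 4 to 10 for ethanol against DMSO at 48 h, 3 to 8 for time in ethanol, and 0 to 4 for the difference in time change (4 without ethanol 48 h replicate 1, 1 without medium 24 h replicate 2 or ethanol 48 h replicate 3). Over the 23 calls of single carriers and 16 alternatives each, 276 of 368 values kept direction and call, 92 kept direction only and 0 turned sign. Quantile normalization and median centring moved the median of all genes by at most 0.04. Calls with adjusted p near 0.05 are limited by 3 arrays a group, and values of SLC25A45 and the second probe set of SLC25A15 by their nearness to background.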

Other observations

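The base composition before the start of the carriers was looked at after their values were known, so it is a description. The 250 bases before the annotated start held between 48.8% and 55.2% G and C for the 3 carriers that were higher with ethanol than in medium at 48 h (SLC25A25, SLC25A38 and SLC25A46), and between 57.6% and 79.6% for the 5 that were lower. The windows of SLC25A25 and SLC25A46 lie inside the gene, before a start within it. Those of SLC25A38 and of the 5 lower carriers end where the gene begins, so higher and lower carriers are not compared over like regions. The 22 tested carriers with a window that did not pass ran from 37.6% to 82.0%, with a median of 70.8%, a range that covers both. The lowest of these, SLC25A26, also had its window inside the gene, as had SLC25A28 and SLC25A45. Over all genes with a window the medians were 64.0% for genes that were higher, 66.8% for those that were lower and 65.2% for those that did not pass. With 8 carriers no test was made.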
